A study of Rattus norvegicus with 30 samples.

Results

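The effect of the lower of 2 methapyrilene doses was examined in primary rat hepatocytes after 24 h. It was read from the 5 arrays titled 3 uM at 24 h against the 5 arrays titled 1% DMSO at 24 h, which are 10 of the 30 arrays of the study. The study asked how methapyrilene changes gene expression in these cells. Frozen hepatocytes of male Sprague Dawley rats were bought, thawed, plated on collagen under a Matrigel overlay, and dosed on the third day of culture with methapyrilene HCl or with DMSO as the vehicle. The 6 groups, of 5 arrays each, were DMSO, 3 uM and 100 uM methapyrilene, each at 24 and at 48 h. The arrays used most here are 3 uM at 24 h and DMSO at 24 h, with 100 uM at 24 h and 3 uM and DMSO at 48 h beside them. The protocol describes concentrated dosing solutions made in 1% DMSO, so the share of DMSO in the medium is uncertain. The 5 replicates of a group were separate wells, called independent cultures in the labels. The labels name no animals, so p-values measure the spread between wells, and the number of arrays limits the precision.

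Methapyrilene is an antihistamine taken off the market because it produced liver tumours in rats. It is cleared by the liver, where cytochrome P450 enzymes oxidise it. Cyp1a1 and Cyp1a2 are P450 enzymes whose genes are switched on by the aryl hydrocarbon receptor (AhR), a ligand-activated transcription factor that binds a short DNA element with the core GCGTG. Liver cells in culture lose part of their specialised programme with time, so each treated group is read against DMSO wells of the same age.

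The cells carried hepatocyte RNA. Of 10 hepatocyte markers 9 were measured, and albumin (Alb) was among the brightest, with signals of 71520, 57480, 65210, 86280 and 94710 in 3 uM replicates 1 to 5 and 92120, 72850, 85450, 78400 and 101000 in DMSO replicates 1 to 5. The first 3 treated wells were the lowest of the 10 and the last 2 lay within the DMSO range. The summed signal of the 9 markers was 387402 to 435230 in 3 uM replicates 1 to 3, 492485 to 563066 in 3 uM replicates 4 and 5 and 444222 to 554193 in DMSO wells. Markers of other liver cells were fewer and dimmer: 8 of 16 for Kupffer cells and leukocytes, 2 of 10 for sinusoidal endothelium, 7 of 12 for stellate cells and 3 of 8 for cholangiocytes passed the brightness filter, which asks for a signal above the array median on at least 5 arrays. Summed signals of the cholangiocyte markers were 9296 to 9626 in 3 uM replicates 1 to 3, 11209 to 11248 in 3 uM replicates 4 and 5 and 10310 to 11673 in DMSO wells, so they too were lowest in the first set. Those of the Kupffer cell markers, at 9926 to 10980, 11523 to 11667 and 9715 to 11969 in the same order, overlapped. So did those of the stellate cell markers, at 3586 to 3954, 3526 to 3582 and 3469 to 4265. The sums of the 2 endothelial markers were 1097 to 1247, 1053 to 1271 and 847 to 1078. There replicates 1 to 3 lay above every DMSO well. None of the 5 marker lists had a gene that passed the test over all 5 treated wells, where 4.22% of all genes passed. In replicates 1 to 3 alone, where 16.4% of all genes were called higher and 13.6% lower, hepatocyte markers had 1 higher and 6 lower and cholangiocyte markers 1 of each. The lower of these 2 was Epcam, an epithelial adhesion protein, whose log2 fold change was -0.28 (adjusted p = 6.28e-05). In bulk cultures, fewer cells of a type and less RNA per cell cannot be told apart.

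The 5 treated wells were divided into 2 sets by a control measure of the array. The array carries probe sets for the 3' and the 5' end of beta-actin. Their ratio goes up where the 5' end gives less signal beside the 3' end, and the reason for this was not tested. This ratio was 3.93, 5.10 and 5.30 in 3 uM replicates 1, 2 and 3, but 2.91 and 3.28 in 3 uM replicates 4 and 5 and 2.80 to 3.27 in DMSO wells. Over the 27 arrays other than these 3 it ranged from 2.34 to 3.43. The 2 sets were made on this ratio, so their separation on it is a description and not a result. The higher ratio came with a lower signal at the 5' end, which was 8112 to 10856 in replicates 1 to 3, 16851 to 17348 in replicates 4 and 5 and 15385 to 17048 in DMSO wells. The matching ratio for Gapdh was 1.15, 1.21 and 1.24 in replicates 1 to 3 and 1.02 to 1.17 in the other 27 arrays. For the array controls dap, lys, phe and thr, the ratios of replicates 1 to 3 lay within the range of the other 27 arrays. That of dap was 6.56 to 7.12 against 6.01 to 8.08. The cre control signal was 75456 to 83829 in replicates 1 to 3 and 83421 to 128693 in the other 27 arrays. That of bioB was 2255 to 2656 against 2530 to 4595. The 99th percentile of signal was 31396 to 32064 in replicates 1 to 3 and 33885 to 41101 in the other 27 arrays. By the array numbers of the titles, each run of 6 arrays holds 1 of every group, and replicates 1, 2 and 3 belong to 3 different runs. Results below are given over all 5 wells unless a set is named, with the sets beside them for the genes described most fully. The part of the control ratio in the results was not tested.

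**Figure D1:**
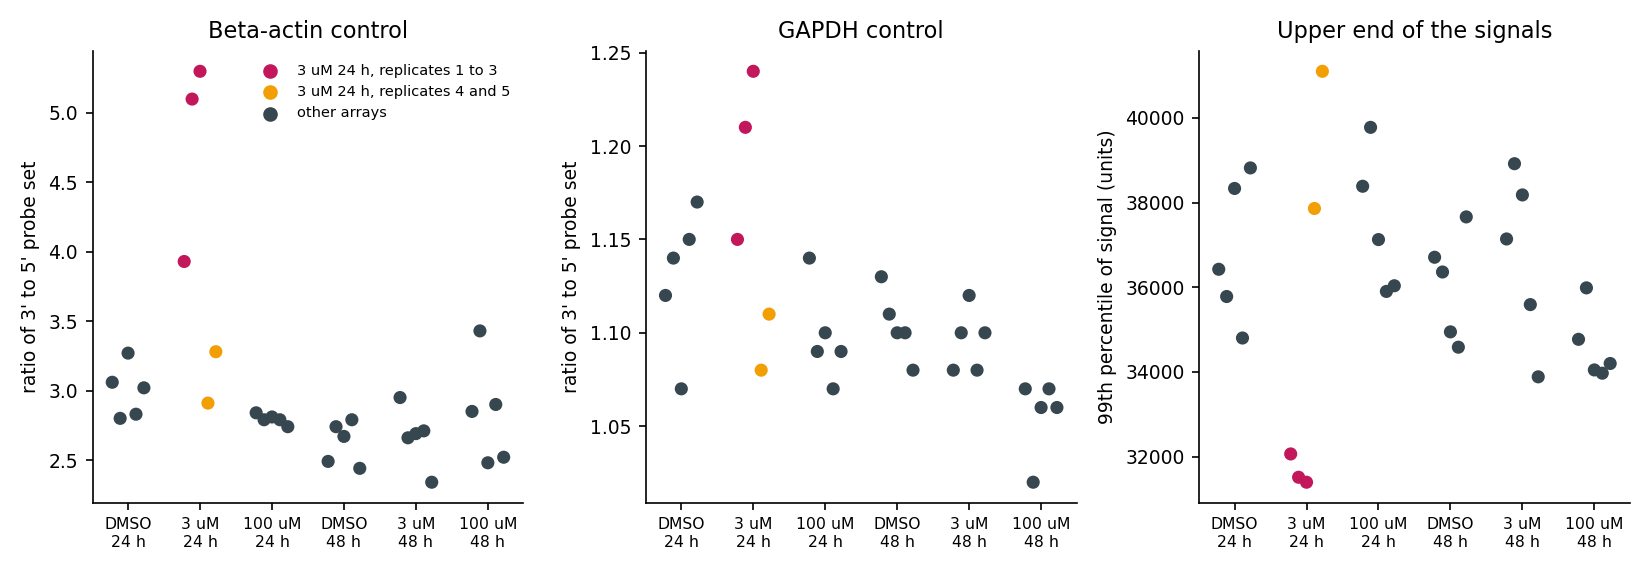
Control measures of all 30 arrays, 1 point per array, by dose and time (x axis): the 3' to 5' ratio of beta-actin, the 3' to 5' ratio of Gapdh and the 99th percentile of signal (y axes, none of which starts at 0). Replicates 1, 2 and 3 of 3 uM at 24 h, set apart by the beta-actin ratio, sit at 3.93, 5.10 and 5.30 for it. The other 27 arrays lie at 2.34 to 3.43. These 3 arrays are lowest for the 99th percentile, at 31396 to 32064.

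Cyp1a1, an inducible P450 enzyme, had the lowest adjusted p of all genes in the comparison of all 5 wells. Its signal was 17500, 16900, 16720, 21180 and 25200 in 3 uM replicates 1 to 5, against 31870, 30910, 28010, 27580 and 32240 in DMSO replicates 1 to 5. Every treated well lay below every DMSO well, so the treated array was necessarily the lower within each of the 5 array runs too. The mean signal was 19500 ± 3670 in 3 uM wells and 30120 ± 2180 in DMSO wells (SD, n = 5 each). The log2 fold change was -0.64 ± 0.080 (SE; limma across all 10222 genes, Benjamini-Hochberg adjusted p = 3.26e-05). Replicates 1 to 3 were the lowest, at -0.82 ± 0.067 (adjusted p = 1.61e-09). Replicates 4 and 5 were also lower than DMSO, at -0.38 ± 0.076 (adjusted p = 0.0383). The 2 sets differed from each other, with replicates 1 to 3 lower by a log2 difference of -0.44 ± 0.083 (adjusted p = 0.000199). The call in replicates 4 and 5 was lost, for example, against same-numbered DMSO wells alone (log2 fold change -0.37, adjusted p = 0.159) and without 3 uM replicate 4 (-0.25, adjusted p = 0.448). With a fit to the 10 arrays alone, Cyp1a1 over all 5 wells had an adjusted p of 0.216. That was the 1 alternative of 23 in which its call over all 5 wells was lost.

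The Cyp1a1 signal was lower still at the higher dose and was also lower at the later time. At 24 h its mean was 30120 ± 2180 with DMSO, 19500 ± 3670 with 3 uM and 8295 ± 528 with 100 uM (SD, n = 5 each). The log2 difference between 100 uM and 3 uM was -1.22 ± 0.080 (adjusted p = 8.15e-14). At 48 h, with separate DMSO wells, the mean was 31750 ± 2050 with DMSO, 23760 ± 789 with 3 uM and 13280 ± 1030 with 100 uM. The 3 uM effect at 48 h was a log2 fold change of -0.42 ± 0.080 (adjusted p = 0.0308). The effect at 24 h minus that at 48 h was -0.23 ± 0.11, which did not pass the test (adjusted p = 0.411).

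Cyp1a2, the constitutive liver member of the family, fell as well. Its signal was 11800, 10450, 10700, 12610 and 15690 in 3 uM replicates 1 to 5, against 19080, 18970, 15830, 14470 and 15350 in DMSO replicates 1 to 5. The groups overlap, because 3 uM replicate 5 lay above DMSO replicates 4 and 5. The log2 fold change was -0.46 ± 0.096 (adjusted p = 0.00832). It was -0.60 in replicates 1 to 3 (adjusted p = 2.74e-05) and -0.24 in replicates 4 and 5 (adjusted p = 0.493), and the sets differed by -0.36 (adjusted p = 0.0294). Without 3 uM replicate 3 the call for Cyp1a2 over all 5 wells was lost, and with the beta-actin ratio as a covariate its adjusted p was 0.546. At 48 h Cyp1a2 was lower in 3 uM wells, at 5641 ± 282, than in DMSO wells, at 9119 ± 823 (SD, n = 5 each), a log2 fold change of -0.69 ± 0.096 (adjusted p = 0.00036). The mean at 24 h was 16740 ± 2140 with DMSO, 12250 ± 2110 with 3 uM and 10370 ± 972 with 100 uM. The log2 difference between 100 uM and 3 uM, at -0.23, did not pass the test (adjusted p = 0.0585).

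Nqo1, a quinone reductase controlled by both AhR and the oxidative stress factor NRF2, was the third AhR-list gene to pass. Its signal was 31180, 32490, 32130, 34850 and 31040 in 3 uM replicates 1 to 5, against 36160, 36200, 41550, 37100 and 37070 in DMSO replicates 1 to 5. The groups did not overlap, though the distance was small, with a log2 fold change of -0.22 ± 0.060 (adjusted p = 0.0336). The call was lost in 13 of 23 alternative settings. At 100 uM the mean was 39640 ± 4200, a log2 difference of 0.29 from 3 uM (adjusted p = 0.000212), so Nqo1 at the higher dose lay above its level at the lower dose. Cyp1b1, an AhR-driven P450 of many tissues, averaged 634.5 ± 60.6 in 3 uM wells and 672.7 ± 153 in DMSO wells (log2 fold change -0.06, adjusted p = 0.879). Tiparp, a feedback inhibitor of AhR, averaged 3724 ± 155 in 3 uM wells and 3333 ± 325 in DMSO wells (log2 fold change 0.17, adjusted p = 0.236). Of 12 genes on the AhR list 5 were measured, of which 0 were called higher and 3 lower, against 2.99% of all genes called higher and 1.22% called lower. In replicates 4 and 5 the count was 0 higher and 1 lower, beside 0.0196% and 0.0783% of all genes.

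**Figure D2:**
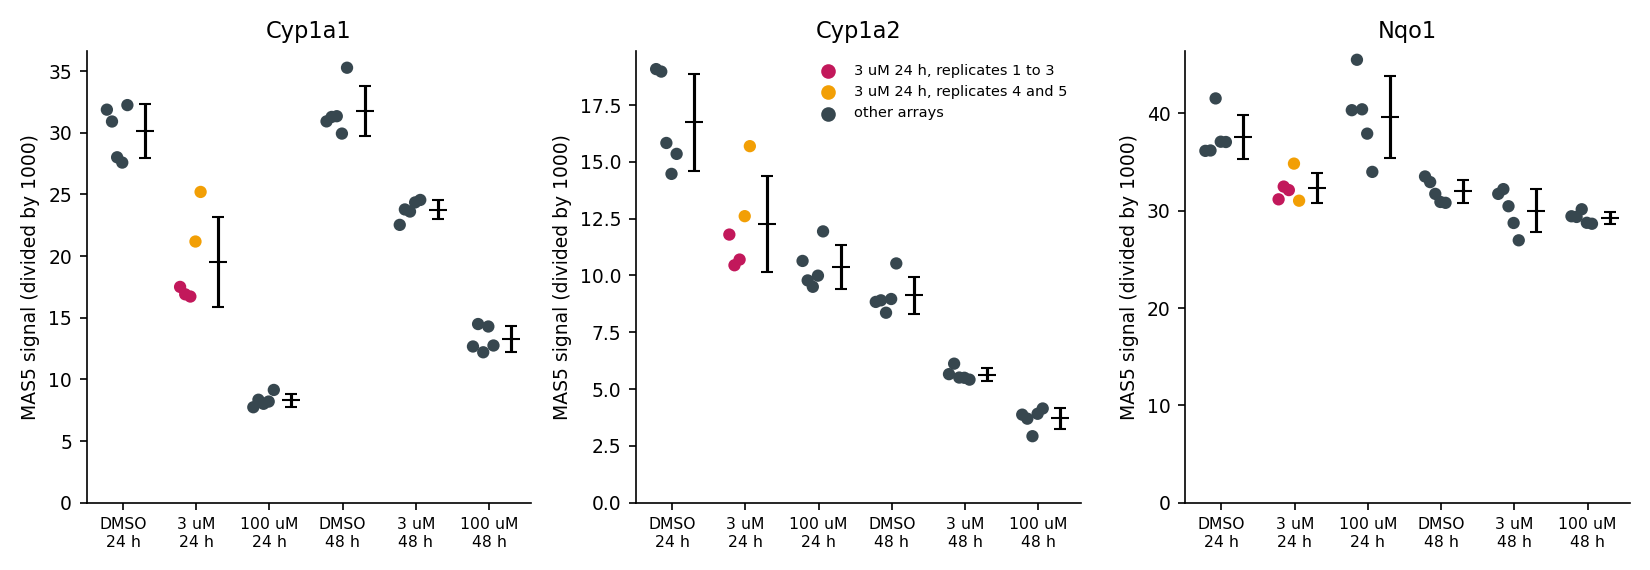
Cyp1a1, Cyp1a2 and Nqo1 signals (y axis, MAS5 signal divided by 1000, linear from 0) on each of the 30 arrays by dose and time (x axis), with group means and SD (n = 5) as bars beside the points. All 5 Cyp1a1 signals at 3 uM and 24 h, 16720 to 25200, lie below the lowest DMSO array of that time at 27580, while Cyp1a2 at 3 uM and 24 h overlaps DMSO.

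The promoters of the 2 AhR-list genes that moved and have an entry in the RefSeq promoter table (build GRCr8) are shown. Their windows differ in matches to GCGTG, the core of the AhR element. Each window runs from 250 bases before to 50 bases after the gene's start, is read 5' to 3' on the gene's strand, and has capitals where GCGTG or its complement CACGC stands. Cyp1a2 lies at chr8:66978100-66978399 on the minus strand and Nqo1 at chr19:52220218-52220517 on the minus strand.
Cyp1a2: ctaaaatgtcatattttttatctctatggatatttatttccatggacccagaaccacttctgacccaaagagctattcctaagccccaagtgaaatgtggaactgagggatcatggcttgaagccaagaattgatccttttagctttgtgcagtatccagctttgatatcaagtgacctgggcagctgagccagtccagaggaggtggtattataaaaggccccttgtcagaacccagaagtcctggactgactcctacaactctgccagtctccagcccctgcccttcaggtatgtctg
Nqo1: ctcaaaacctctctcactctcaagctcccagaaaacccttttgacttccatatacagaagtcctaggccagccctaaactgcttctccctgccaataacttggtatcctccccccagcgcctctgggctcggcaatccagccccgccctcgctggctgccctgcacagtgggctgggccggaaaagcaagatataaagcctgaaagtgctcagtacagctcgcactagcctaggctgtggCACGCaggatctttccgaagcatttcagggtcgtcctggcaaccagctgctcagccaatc
The Cyp1a2 window held 0 matches. The Nqo1 window held 1, on the opposite strand and beginning 10 bases before the start. Of all 33469 promoter windows of 300 bases, 9939 (29.7%) held the motif on either strand. Cyp1b1 had 2 matches and Tiparp 1, while Cyp1a1 was not among the table's entries. A match describes these letters and does not show binding. Bases outside these windows were not searched, so a window without a match does not show that the gene lacks the element.

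Across the genome the 3 uM effect at 24 h was small in size. Of 10222 genes, 431 (4.22%) were called, 306 (2.99%) higher and 125 (1.22%) lower, where called means an adjusted p under 0.05 in limma. Of these, 13 were higher (0.127% of genes) and 6 lower (0.0587%) by at least 1.5-fold, and the median log2 fold change over all genes was 0.014 with an SD of 0.219. Calls were 71.0% higher here and 90.7% higher when each array was centred on its median, and in replicates 1 to 3 alone 54.8% and 69.6%. Genes called with no overlap between the 5 treated and the 5 DMSO wells numbered 76 higher (0.743% of genes) and 35 lower (0.342%). The calls rested mainly on replicates 1 to 3. Without replicate 3 they fell to 32 higher and 10 lower, and without replicate 5 there were 943 higher and 707 lower. Against the same DMSO wells, replicates 1 to 3 gave 1680 genes higher (16.4%) and 1387 lower (13.6%), while replicates 4 and 5 gave 2 higher (0.0196%) and 8 lower (0.0783%). Both counts use the 5 DMSO wells and different numbers of treated wells. The direct comparison, which uses no DMSO well, called 1407 genes higher (13.8%) and 1299 lower (12.7%) in replicates 1 to 3 than in replicates 4 and 5. With a fit to the 10 arrays alone, 0 genes were called over all 5 wells and 1473 had an unadjusted p under 0.05, beside 2256 in the fit to all 30 arrays. With the beta-actin ratio as a covariate, 0 genes were called higher and 1, Cyp1a1, lower.

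The 10 largest rises with all 5 treated wells above all 5 DMSO wells included 2 enzymes of pyrimidine nucleotide synthesis, Cad and Ctps1. Cad, the enzyme that starts pyrimidine synthesis, had signals of 1207, 1195, 1113, 1045 and 1228 in 3 uM wells, against 926.4, 893.6, 542.7, 821.9 and 779.3 in DMSO wells. Its log2 fold change was 0.57 ± 0.13 over all 5 (adjusted p = 0.0125), with 0.59 in replicates 1 to 3 and 0.54 in replicates 4 and 5. Ctps1, which makes CTP in the same pathway, had signals of 2731, 2404, 2181, 2505 and 1905 in 3 uM wells, against 1587, 1280, 1608, 1894 and 1873 in DMSO wells. Its lowest treated well lay only just above its highest DMSO well, and its log2 fold change was 0.51 ± 0.12 (adjusted p = 0.0145), with 0.57 in replicates 1 to 3 and 0.42 in replicates 4 and 5. Dennd5a, an activator of Rab GTPases in vesicle traffic, had 2009, 2000, 2182, 1597 and 1818 in 3 uM wells, against 1120, 1130, 1523, 1467 and 985.3 in DMSO wells. Its log2 fold change was 0.64 ± 0.11 (adjusted p = 0.0025), with 0.75 in replicates 1 to 3 and 0.47 in replicates 4 and 5. The 100 uM wells lay above 3 uM wells by a further 0.87 (adjusted p = 4.37e-08).

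The other 7 of the 10 largest rises came from genes of several kinds. Elmo2, a scaffold for Rac activation, gave the largest log2 fold change, 1.67 ± 0.44 (adjusted p = 0.0291), from signals of 346.9 to 542 in 3 uM wells and 91.19 to 335.5 in DMSO wells, which lie near or below the typical array median. Pea15, a death effector domain protein that binds ERK, rose by 0.63 (adjusted p = 0.00468), with 0.81 in replicates 1 to 3 and 0.35 in replicates 4 and 5. A second probe set of Pea15 gave 0.12 (adjusted p = 0.631). Xpo4, a nuclear transport receptor, rose by 0.60 (adjusted p = 0.00414), with 0.79 in replicates 1 to 3 and 0.31 in replicates 4 and 5, a difference of the sets that passed the test (adjusted p = 0.00572). Its second probe set gave 0.56 (adjusted p = 0.0901) and another -0.14. Arfgef2, an exchange factor for Arf GTPases, rose by 0.55 (adjusted p = 0.00792; 0.68 in replicates 1 to 3 and 0.36 in replicates 4 and 5). Smad3, which carries TGF-beta signals to the nucleus, rose by 0.55 as well (adjusted p = 0.0316; 0.68 in replicates 1 to 3 and 0.36 in replicates 4 and 5). Dnajc11, a mitochondrial J-domain protein, rose by 0.51 (adjusted p = 0.00808) with 0.52 in replicates 1 to 3 and 0.48 in replicates 4 and 5. Pld1, a phospholipase D, rose by 0.49 (adjusted p = 0.00668), though its other probe sets gave -0.06 and 0.17. Its sets differed, at 0.64 in replicates 1 to 3 and 0.26 in replicates 4 and 5 (adjusted p = 0.0154).

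The 10 largest falls, taken from genes with all 5 treated wells below all 5 DMSO wells, were led in brightness by Cyp1a1 and Spink1l. Spink1l had signals of 7509, 9300, 7425, 10060 and 10090 in 3 uM wells, against 10950, 12170, 11630, 12750 and 12740 in DMSO wells. Replicates 4 and 5 were nearest to DMSO. The log2 fold change was -0.45 ± 0.084 (adjusted p = 0.00462) and the difference of the sets -0.33 (adjusted p = 0.0192). Slc4a11, a membrane transporter of the bicarbonate carrier family, fell evenly, with -0.45 in replicates 1 to 3 and -0.47 in replicates 4 and 5 (-0.46 over all 5, adjusted p = 0.00808). Asb5, an ankyrin and SOCS box protein, fell by 0.54 on the log2 scale (adjusted p = 0.0184), with -0.56 in replicates 1 to 3 and -0.50 in replicates 4 and 5. A second probe set of Asb5 gave -0.32 (adjusted p = 0.144), with -0.48 in replicates 1 to 3 and -0.095 in replicates 4 and 5. Nfyb, a subunit of the CCAAT-binding factor NF-Y, had 1238, 883.5, 848.7, 1243 and 1366 in 3 uM wells, against 1849, 1558, 1653, 1417 and 1651 in DMSO wells (-0.56, adjusted p = 0.00558). Replicates 1 to 3 were lower (-0.73) than replicates 4 and 5 (-0.31, difference adjusted p = 0.0232), but a second probe set of Nfyb gave 0.001. Slc16a10, an aromatic amino acid transporter, fell by 0.45 (adjusted p = 0.0474), Gprasp3 by 0.56 (adjusted p = 0.0212) and the P450 gene Cyp2t1 by 0.46 (adjusted p = 0.0389). Gabrq, a GABA-A receptor subunit, and Garin5a are dim here and had log2 fold changes of -1.12 (adjusted p = 0.0396) and -0.89 (adjusted p = 0.0223). Of these 20 genes, 19 were called in replicates 1 to 3 and 1, Cyp1a1, in replicates 4 and 5. The difference between the 2 sets passed the test for 6 of the 20. Cyp1a1 was also the 1 gene of the 20 called at 48 h.

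**Figure D3:**
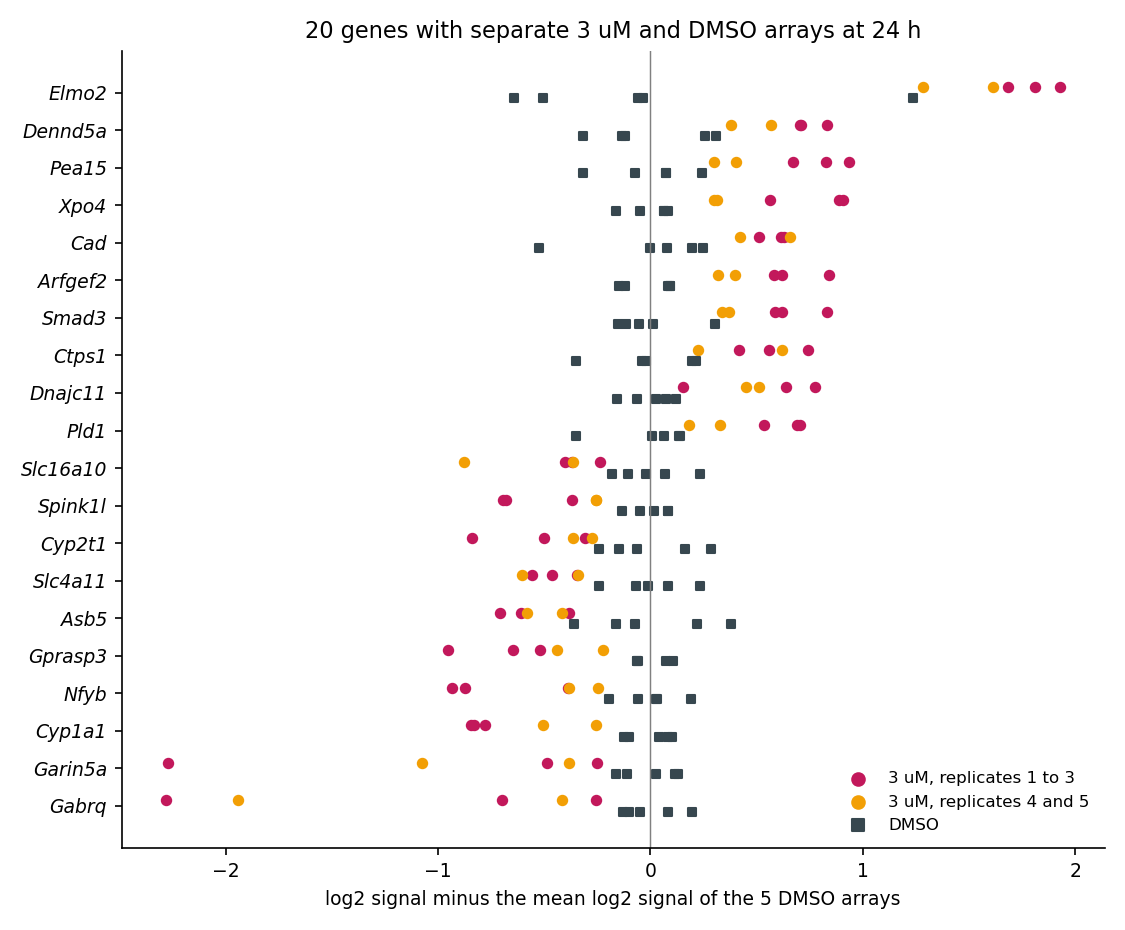
Log2 signal of each array minus the mean of the 5 DMSO arrays at 24 h (x axis) for the 20 genes with the largest called changes and no overlap between groups (y axis), with circles for 3 uM replicates 1 to 3 and 4 to 5 in separate colours and squares for DMSO arrays. The 2 sets of 3 uM arrays mix for Cad, Asb5 and Slc4a11, while replicates 1 to 3 lie farther from DMSO than replicates 4 and 5 for Cyp1a1, Pea15 and Spink1l.

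In replicates 4 and 5, 10 genes passed the test, and 3 bright ones among them, Zmpste24, Osbpl8 and Mrpl53, were called the opposite way in replicates 1 to 3. Without 3 uM replicate 4 the count was 15 lower, and without replicate 5 it was 26 lower. Zmpste24, the protease that matures lamin A, had signals of 4441, 4664, 4814, 2810 and 2872 in 3 uM replicates 1 to 5, against 4086, 3839, 3645, 3924 and 3908 in DMSO wells. Replicates 4 and 5 lay below every DMSO well (-0.45, adjusted p = 0.00741) and replicates 1 to 3 above every one (0.26, adjusted p = 0.00289), a log2 difference between the sets of 0.71 (adjusted p = 4.35e-07). Its call in replicates 4 and 5 was lost in 4 of 19 alternatives, among them same-numbered DMSO wells (adjusted p = 0.0562). Osbpl8, a lipid transfer protein of the endoplasmic reticulum, had 5290, 4782, 4523, 2465 and 2668 in 3 uM wells, against 3635, 3427, 3662, 3954 and 3332 in DMSO wells. It showed the same opposite pattern, at -0.49 in replicates 4 and 5 (adjusted p = 0.0396) and 0.43 in replicates 1 to 3 (adjusted p = 0.000285), and the sets differed by 0.92 (adjusted p = 5.32e-07). The call for Osbpl8 in replicates 4 and 5 was lost in 11 of 19 alternatives, with an adjusted p of 0.131 against same-numbered DMSO wells. Mrpl53, a mitochondrial ribosomal protein, had 9570, 9750, 10090, 13190 and 16110 in 3 uM wells and 10860 to 12100 in DMSO wells. Here replicates 4 and 5 were the highest (0.35, adjusted p = 0.0377) and replicates 1 to 3 the lowest (-0.23, adjusted p = 0.00431). The call for Mrpl53 in replicates 4 and 5 was lost in 8 of 19 alternatives, over which its log2 fold change ranged from 0.20 to 0.49, with an adjusted p of 0.167 against same-numbered DMSO wells.

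Arl6ip1, a membrane-shaping protein of the endoplasmic reticulum, was called higher in both sets. Its signals were 9687, 9372, 9648, 9661 and 11150 in 3 uM wells, against 8229, 8038, 8877, 8657 and 8681 in DMSO wells. All 5 treated wells lay above all DMSO wells, at a log2 fold change of 0.22 over all 5 (adjusted p = 0.0146), 0.17 in replicates 1 to 3 (adjusted p = 0.0122) and 0.29 in replicates 4 and 5 (adjusted p = 0.0397). The call in replicates 4 and 5 was lost in 11 of 19 alternatives, among them same-numbered DMSO wells (0.26, adjusted p = 0.207) and leaving out replicate 5, the highest well, which gave 0.19 (adjusted p = 0.428). Oprk1 and Pla2g2f were called lower in replicates 4 and 5 from dim signals, at -1.93 and -2.50 (adjusted p = 0.00741 for each). Nufip2 (-0.56), Padi1 (-2.58) and Pigh (-1.02) complete the 10 with Cyp1a1, and these 3 are named after their values were seen.

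The 2 sets of 3 uM wells did not move together over the genome. When each set was compared with the DMSO wells of its own numbers, so that no well was shared, the 2 sets of log2 fold changes had a correlation of -0.074 over 10222 genes. The direction was the same for 45.5% of genes. Genes share arrays and are not independent replicates, so this is a description. Among the 2671 genes (26.1%) called in replicates 1 to 3 this way, 37.9% had the same direction in replicates 4 and 5. A second probe set of the same gene gave the same direction for 96 of 148 called genes that have one (64.9%) in the comparison of all 5 wells.

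**Figure D4:**
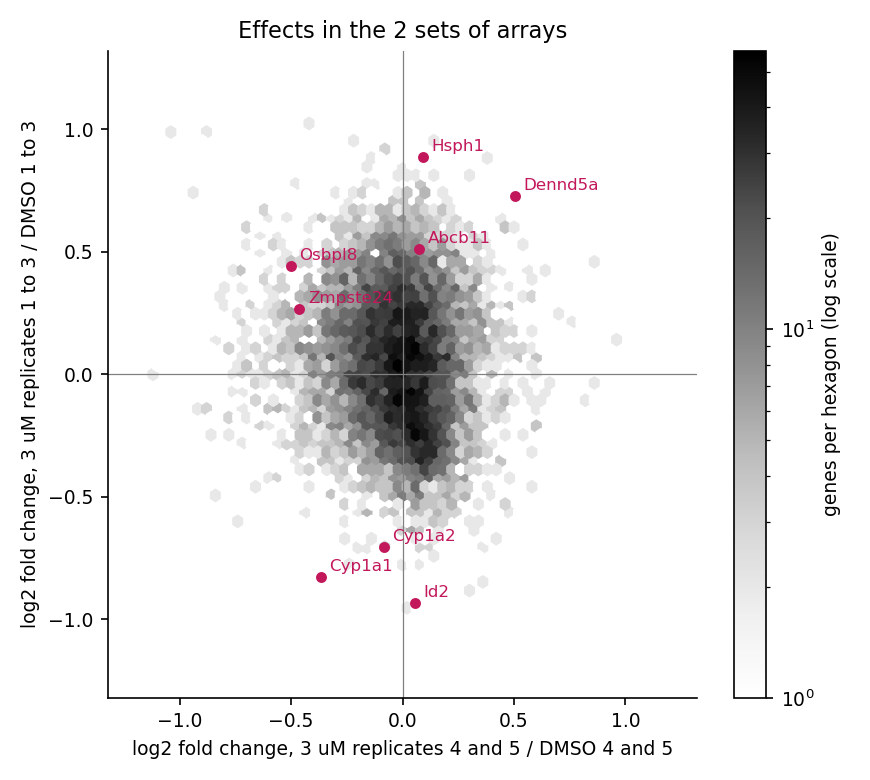
Log2 fold change of each gene in 3 uM replicates 1 to 3 against DMSO replicates 1 to 3 (y axis) and in 3 uM replicates 4 and 5 against DMSO replicates 4 and 5 (x axis), as hexagons shaded by the number of genes on a log scale, with 10096 genes drawn and 126 outside the axes. The cloud has no shared slope (r = -0.074), Cyp1a1 is negative on both axes and Zmpste24 and Osbpl8 are positive on the y axis and negative on the x axis.

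Gene groups were then read from 41 lists of 1360 genes. With all 5 wells, 28 lists had at least 1 called gene, most of them 1 to 4 genes. In replicates 1 to 3 alone 38 lists had a call, and in replicates 4 and 5 alone 2 lists had one, which were the AhR list (Cyp1a1) and the mitochondrial ribosomal proteins (Mrpl53). The group results below therefore describe replicates 1 to 3 far more than replicates 4 and 5.

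Named rises from the lists of protein synthesis, folding and breakdown were largest in replicates 1 to 3. Hsph1, a cochaperone of Hsp70, had signals of 4350, 5122, 5172, 3140 and 2803 in 3 uM wells, against 2411, 2467, 3067, 2948 and 2624 in DMSO wells. Replicates 1 to 3 stand well above DMSO and replicate 5 lies inside its range, with a log2 fold change of 0.57 over all 5 (adjusted p = 0.00967) and 0.71 between the sets (adjusted p = 7.45e-05). Psmd2, a subunit of the proteasome cap, had 13940, 14140, 15250, 11050 and 10870 in 3 uM wells, against 9817, 9576, 10520, 10310 and 10800 in DMSO wells (0.34, adjusted p = 0.00494). All 5 wells were higher, but replicates 4 and 5 only slightly, at 0.10. Eprs1, which charges transfer RNA with glutamate and proline, had 12230, 11150, 12270, 8161 and 9175 in 3 uM wells, against 7228, 8295, 7775, 7347 and 8167 in DMSO wells (0.43, adjusted p = 0.00707). Its replicates 1 to 3 were clear of DMSO while replicate 4 was inside the DMSO range, and its other probe sets gave 0.33, -0.08 and -0.43. Eif3c, a translation initiation subunit, rose by 0.36 (adjusted p = 0.00394), though a second probe set gave -0.17, and Eif4g1, the initiation scaffold, rose by 0.43 (adjusted p = 0.0145), though a second, dim probe set gave -0.23. In replicates 1 to 3 Eif3c was at 0.50 and Eif4g1 at 0.63, and in replicates 4 and 5 Eif3c was at 0.16 and Eif4g1 at 0.12.

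Counts over these lists are read against 2.99% of all genes higher and 1.22% lower over all 5 wells, 16.4% and 13.6% in replicates 1 to 3, and 0.0196% and 0.0783% in replicates 4 and 5, where a list of this size would rarely hold a called gene. Of the ATF4 target list, which holds Eprs1 and Tars1 (0.38, adjusted p = 0.0169), 5 genes were called higher and 2 lower of 37 measured over all 5 wells, 12 higher and 5 lower in replicates 1 to 3, and 0 in replicates 4 and 5. The median log2 fold change of this list was 0.089 beside 0.014 over all genes. Ribosome biogenesis, the making of new ribosomes in the nucleolus, had 4 higher and 1 lower of 44 over all 5 wells. Among them were Bop1 (0.46, adjusted p = 0.0307), Tsr1 (0.32, adjusted p = 0.00808) and, lower, Nip7 (-0.23). In replicates 1 to 3 the ribosome biogenesis list had 19 higher and 7 lower, and in replicates 4 and 5 it had 0 calls. At 100 uM, against the same DMSO wells, this list had 31 higher and 0 lower, beside 19.8% of all genes higher and 15.8% lower. Over all 5 wells, translation factors had 4 higher and 0 lower of 39, lysosome genes 4 and 0 of 38, cytoskeleton and adhesion genes 4 and 0 of 48, proteasome genes 3 and 0 of 40, p53 targets 3 and 0 of 18, heat shock genes 1 and 0 of 21, and TGF-beta and matrix genes 3 and 1 of 29. In replicates 1 to 3 the same lists had 7 higher and 11 lower, 10 and 5, 8 and 10, 6 and 15, 6 and 4, 7 and 1, and 6 and 1, in that order.

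Among members of these and other lists, replicates 1 to 3 stood apart for Itgb1, Id2 and Optn, but not for every gene named. Itgb1, the beta-1 integrin that binds matrix, had 15280, 15270, 17110, 11980 and 10970 in 3 uM wells, against 10500, 10730, 11070, 11200 and 10750 in DMSO wells (0.36, adjusted p = 0.00808). The sets differed by 0.47 (adjusted p = 3.73e-06), and a second probe set gave 0.37 (adjusted p = 0.00938). Id2, an inhibitor of helix-loop-helix transcription factors, had 3360, 2954, 2839, 5816 and 5369 in 3 uM wells, against 5683, 5616, 6150, 5770 and 5022 in DMSO wells. Replicates 1 to 3 were far below DMSO (-0.89, adjusted p = 1.77e-09) and replicates 4 and 5 inside its range (-0.01), and the sets differed by -0.88 (adjusted p = 2.15e-07). A second probe set of Id2 gave -0.15 over all 5 wells. Optn, an autophagy receptor, had 13960, 13670, 14610, 9842 and 10040 in 3 uM wells and 9803 to 10040 in DMSO wells. Its replicates 1 to 3 were apart from all the rest and replicates 4 and 5 lay within the DMSO range, while a second probe set gave -0.003. Wipi1, also of the autophagy list, was at -0.37 in replicates 1 to 3 and -0.32 in replicates 4 and 5. A second, dim probe set of Wipi1 gave -0.15 over all 5 wells. Ccng1, a p53 target, rose by 0.31 over all 5 (adjusted p = 0.0132), with 0.47 in replicates 1 to 3 and 0.08 in replicates 4 and 5.

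In the transport and lipid lists, replicates 1 to 3 were apart for Abcb11 and Fads1 but not for Abcc2. Abcb11, the bile salt export pump, had 21920, 21290, 22270, 14740 and 16040 in 3 uM wells, against 15730, 14910, 15300, 15140 and 14090 in DMSO wells. Replicates 1 to 3 lay clearly above every DMSO well (0.54, adjusted p = 4.71e-08), while replicate 4 was inside the DMSO range and the 2 wells of its set averaged 0.03. At 100 uM, Abcb11 lay below 3 uM by a log2 difference of -1.15 (adjusted p = 3.67e-13). Abcc2, which exports conjugates into bile, rose by 0.24 (adjusted p = 0.0253), with 0.28 in replicates 1 to 3 and 0.19 in replicates 4 and 5, and the difference of its sets did not pass the test (0.10, adjusted p = 0.442). Slc10a1, the sinusoidal bile salt importer, fell by 0.47 (adjusted p = 0.0326), so bile acid genes had 2 higher and 1 lower of 22, beside 2.99% and 1.22% of all genes. In replicates 1 to 3 bile acid genes had 6 higher and 3 lower, beside 16.4% and 13.6% of all genes. Lipogenesis genes had 4 higher and 0 lower of 23 over all 5 wells, among them Fads1, a fatty acid desaturase (0.60, adjusted p = 0.0428), with 0.96 in replicates 1 to 3 and 0.07 in replicates 4 and 5. This list had 10 higher and 2 lower in replicates 1 to 3, beside 16.4% and 13.6% of all genes, and 0 calls in replicates 4 and 5, where 10 of all 10222 genes were called. Gclc, which makes the first step of glutathione synthesis, rose by 0.35 (adjusted p = 0.0184), with a second probe set at -0.10, and NRF2 targets had 2 higher and 2 lower of 32. In replicates 1 to 3 NRF2 targets had 8 higher and 13 lower, beside the same 16.4% and 13.6%.

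The lists with the most genes called in replicates 1 to 3 were oxidative phosphorylation and the cytosolic and mitochondrial ribosomal proteins, and all of these calls were lower. Of 68 measured genes of oxidative phosphorylation, 0 were higher and 54 lower in replicates 1 to 3, against 16.4% of all genes higher and 13.6% lower. Their median log2 fold change was -0.261 there, 0.102 in replicates 4 and 5 and -0.108 over all 5 wells. Of 41 cytosolic ribosomal protein genes, 0 were higher and 39 lower in replicates 1 to 3, with a median of -0.275, and in replicates 4 and 5 none was called and 37 of 41 had a positive fold change, with a median of 0.130. Mitochondrial ribosomal protein genes had 0 higher and 35 lower of 71 in replicates 1 to 3. Over all 5 wells these 3 lists had 0, 0 and 0 higher and 1, 0 and 1 lower, where the respiratory one was Atp5pb, a subunit of ATP synthase (-0.26, adjusted p = 0.0497), and the mitochondrial one Mrps18c (-0.26, adjusted p = 0.00808). Ndufc2 and Rps24 show the pattern. Ndufc2, of complex I, was at -0.42 in replicates 1 to 3 (adjusted p = 3.03e-06) and 0.08 in replicates 4 and 5, and Rps24, of the small ribosomal subunit, at -0.43 (adjusted p = 5.81e-05) and 0.14.

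The counts in these lower groups depend on how the arrays are scaled to each other, to a different extent in each list. After quantile normalization, which gives every array the same distribution of signals, the counts in replicates 1 to 3 became 1 higher and 30 lower for oxidative phosphorylation, 0 and 6 for cytosolic ribosomal proteins and 0 and 37 for mitochondrial ribosomal proteins, beside 13.4% of all genes higher and 12.6% lower under the same scaling. The 6 of 41 cytosolic ribosomal genes are thus near the share of all genes. The median of the ribosomal list was then -0.025 in replicates 1 to 3 and 0.029 in replicates 4 and 5. With each array centred on its own median, the counts were 0 and 29, 0 and 15, and 0 and 10 in the same order, beside 15.4% and 6.71% of all genes. The 2556 brightest genes, of a mean signal of at least 4570, had a median log2 fold change of -0.099 in replicates 1 to 3, with 441 called higher and 973 lower, and of 0.046 in replicates 4 and 5. Genes for plasma proteins and for drug conjugation followed the same division. Plasma protein genes had 3 higher and 23 lower of 42 in replicates 1 to 3, which became 6 and 5 after quantile normalization, near the share of all genes. Conjugation enzymes had 2 higher and 20 lower of 39, which became 0 and 10. Neither list had a call in replicates 4 and 5, and over all 5 wells they had 1 higher and 1 lower, and 0 and 1.

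By array, the median log2 difference of the ribosomal list from the DMSO mean (each DMSO well against the other 4) was -0.248, -0.307, -0.290, 0.022 and 0.202 in 3 uM replicates 1 to 5 and -0.136 to 0.160 in DMSO wells. That of oxidative phosphorylation was -0.231, -0.243, -0.307, 0.090 and 0.132 in 3 uM replicates and -0.078 to 0.070 in DMSO wells. In both lists replicates 1, 2 and 3 lay below every DMSO well and replicate 5 above every one, and for oxidative phosphorylation replicate 4 did too. The hepatocyte markers went the same way, at -0.256, -0.392, -0.306, 0.014 and 0.190 in 3 uM replicates and -0.183 to 0.181 in DMSO wells. These wells are the ones with the raised beta-actin ratio, and its part in the lower medians was not tested.

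**Figure D5:**
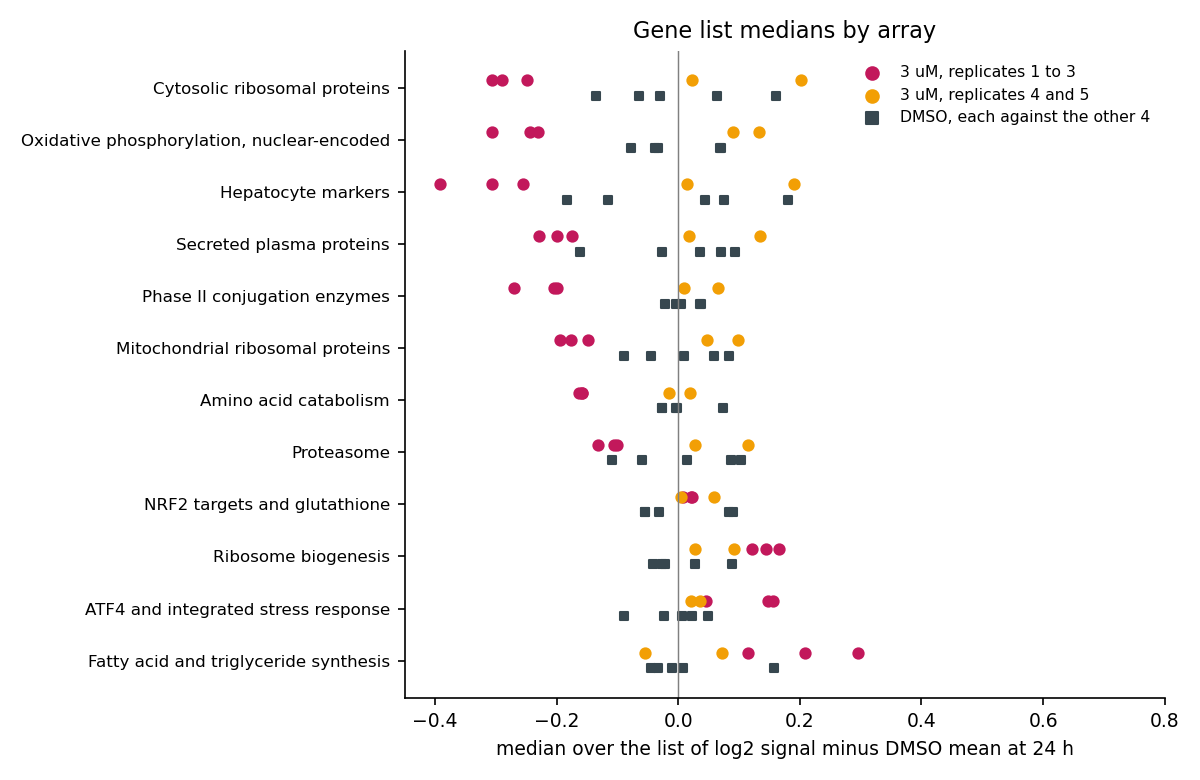
Median over 12 gene lists (y axis) of log2 signal minus the DMSO mean at 24 h (x axis), 1 point per array, with circles for the 3 uM arrays and squares for DMSO arrays, each DMSO array set against the other 4. Replicates 1 to 3 lie between -0.307 and -0.248 for cytosolic ribosomal proteins, below every DMSO array, and replicates 4 and 5 at 0.022 and 0.202.

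The remaining lists had few or no calls over all 5 wells, beside 2.99% of all genes called higher and 1.22% called lower. Amino acid breakdown had 0 higher and 3 lower of 59, which were Bckdha (-0.30), of branched-chain amino acid breakdown, Dao (-0.33), D-amino acid oxidase, and Kynu (-0.28), kynureninase. At 100 uM, against the same DMSO wells, that list had 0 higher and 53 lower with a median of -0.627. There 19.8% of all genes were called higher and 15.8% lower. Over all 5 wells of 3 uM, fatty acid oxidation and PPAR-alpha targets had 1 higher and 2 lower of 33, and autophagy genes 1 and 2 of 22. Splicing and RNA-binding genes had 2 and 2 of 57, other P450 genes 0 and 2 of 25, and immediate early genes 1 and 1 of 26. Cholesterol synthesis (20 measured) and acute phase genes (27) had 1 higher and 0 lower each. Urea cycle (10), hepatocyte transcription factor (17) and cell cycle (36) lists had 0 higher and 1 lower each. Targets of the drug receptors CAR and PXR, glucose handling, circadian clock, ER chaperone, cell death, histamine and monoamine, and growth hormone and IGF genes had 0 calls in limma. These lists held 9 to 28 measured genes each. In replicates 1 to 3, where 16.4% of all genes were higher and 13.6% lower, amino acid breakdown had 7 higher and 21 lower of 59, fatty acid oxidation 4 and 11 of 33, splicing and RNA-binding genes 7 and 17 of 57, cholesterol synthesis 8 and 1 of 20, acute phase genes 4 and 8 of 27, immediate early genes 2 and 9 of 26, ER chaperones 3 and 9 of 24, and CAR and PXR targets 1 and 6 of 21. The other lists of this paragraph had at most 11 calls there, counting both directions.

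Against the same DMSO wells at 24 h, 100 uM gave 2029 genes higher (19.8%) and 1618 lower (15.8%). The direct comparison of the doses called 2021 genes higher (19.8%) and 1949 lower (19.1%) at 100 uM than at 3 uM, or 50.9% of calls higher, and 34.5% with arrays centred on their median. Nabp1, a single-strand DNA binding protein, was higher at 100 uM. Its 3 uM wells, at 3947 to 4684, overlapped DMSO wells, at 3276 to 4412, and the log2 difference of 100 uM from 3 uM was 1.74 ± 0.075 (adjusted p = 9.12e-18). At 3 uM its fold change against DMSO was 0.11 (adjusted p = 0.412). Rpp25, Atf2 and Pip5k1b were higher at 100 uM than at 3 uM by 2.11, 1.89 and 1.77. Abca8a, a lipid transporter, was lower at 100 uM than at 3 uM by a log2 difference of -2.83 ± 0.23 (adjusted p = 9.16e-12), while 3 uM against DMSO gave 0.26 (adjusted p = 0.54). Abcc9, Tnfsf10 and Olr59 were lower by -3.37, -2.70 and -2.61.

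At 48 h, with its own 5 DMSO wells, 3 uM called 4 genes, 2 in each direction (0.0196% each). Cyp1a2 and Cyp1a1 were lower, as given above. Rrp9, a U3 small nucleolar RNA binding protein of ribosome biogenesis, was higher by 0.82 (adjusted p = 0.00488), against 0.03 at 24 h. Ift52, of intraflagellar transport, was higher by 0.49 (adjusted p = 0.0308), against 0.10 at 24 h. Rrp9 and Ift52 were named after their values were seen. The effect of 3 uM at 24 h minus that at 48 h passed the test for 0 genes in limma, with 1256 genes at an unadjusted p under 0.05, and likewise for 0 genes with replicates 4 and 5 alone at 24 h, with 545. Without 3 uM replicate 4 at 24 h it passed for 33 genes higher and 11 lower, and without replicate 5 for 104 and 49. With array weights it passed for 836 higher and 780 lower. The log2 fold changes at 24 h and 48 h had a correlation of 0.047 over all genes, of which 52% had the same direction. Over the 431 genes called at 24 h the correlation was 0.397, and 293 (68%) had the same direction at 48 h. With replicates 1 to 3 alone at 24 h, 50% of all genes had the same direction, and with replicates 4 and 5 alone 56.8%. Genes are not independent replicates, so these too are descriptions.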

How the data were processed

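RNA of 30 wells was hybridised to a rat expression array. The deposited values are intensity, made by the authors with MAS5 per the submitters' processing notes as a signal per probe set on a linear scale. Its version is not given in the sources used here. Array medians ranged from 361.677 to 471.419.

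Signals were log2 transformed without a pseudocount. Probe sets with 1 gene symbol in the platform annotation (20826 of 31099) entered if they were above the array median on 5 or more arrays. The brightest per gene gave 10222 genes. Limma 3.58.1 in R 4.3.3 fitted a mean per group to all 30 arrays (24 residual degrees of freedom, or 23 with 3 uM at 24 h split in 2 sets), with a trended eBayes and two-sided tests. P-values were Benjamini-Hochberg adjusted within each comparison, with 0.05 as the threshold for a call. Probe sets without exactly 1 symbol were tested apart. Replicate numbers follow the order of deposit, and the main fit does not pair wells by them. Same-numbered wells share a run of array numbers, and what a run stands for is not stated. Same-numbered wells of 3 uM and DMSO deviated with correlations of -0.016, -0.065, -0.008, 0.009 and 0.025. Wells of different numbers gave -0.076 to 0.073. The difference between the 2 sets of 3 uM wells enters these deviations, so they do not decide whether wells are paired.

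Genes named were the 10 largest called changes each way without overlap, up to 5 each way in replicates 4 and 5, the 6 largest between the 2 sets, up to 2 called members (or the brightest) of each of 41 gene lists, and the 4 largest each way between doses, with a brightness minimum outside the lists. The wells compared, lists and members were chosen with earlier results of these data known. Alternatives changed scaling, filter, a pseudocount of 16, the probe set taken for a gene, the eBayes trend, arrays fitted, array weights, the run of arrays as a block, the beta-actin ratio as a covariate and each array in turn. The code was tested on simulated data. Promoter sequences are RefSeq's (GRCr8). Plots used Python 3.11.15 and matplotlib 3.10.9.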

Additional observations from a re-analysis of the deposited data

Results flagged for a closer look

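Single wells stood apart from the other 4 of their group in 10 of 214 groups of values checked with Dixon's test (ratio above 0.71). Most were signals of a gene in a group. Control measures of the arrays made up the rest, and none of those was flagged. Chance alone picks out about 1 group in 20. At 3 uM and 24 h these were Arl6ip1 in replicate 5, at 11150 with the next well at 9687, Utp4 in replicate 5, at 4208 with the next at 4952, Plk2 in replicate 5, at 5589 with the next at 6732, and Cdkn1b in replicate 5, at 9771 with the next at 7617. Syndig1l in replicate 4 of 3 uM was at 26.12 with the next well at 372.4. Among DMSO wells at 24 h they were Elmo2 in replicate 3, at 335.5 with the next at 139.1, Nqo1 in replicate 3, at 41550 with the next at 37100, Nat8 in replicate 1, at 1359 with the next at 1124, F5 in replicate 5, at 4843 with the next at 4613, and Atf2 in replicate 5, at 626.2 with the next at 386.8. Elmo2 and Nqo1 differ between 3 uM and DMSO in the report, and in both the wells stay apart with that DMSO well included.

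Probe sets without exactly 1 gene symbol lie outside the report's comparisons. Of 4025 of them, 23 were called higher and 20 lower with 3 uM at 24 h (1.07%), against 4.22% of genes with a symbol.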

How the results depend on the processing

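Counts are given as genes higher and lower. For all 5 wells of 3 uM against DMSO at 24 h (306 and 125), quantile normalization gave 325 and 207, median centring 225 and 23 (90.7% of calls higher, against 71.0%; 61.1% after quantile normalization), a fit to the 10 arrays 0 and 0, array weights 1597 and 1292 (55.3% higher), the beta-actin covariate 0 and 1, replicates 4 and 5 alone 2 and 8, and replicates 1 to 3 alone 1680 and 1387. Leaving out 1 well gave 32 to 943 and 10 to 707: without 3 uM replicate 1, 2 or 3 the counts were 54 and 22, 45 and 20, and 32 and 10, without replicate 4 or 5 they were 884 and 567, and 943 and 707, and without DMSO replicate 1, 2 or 5 they were 184 and 83, 95 and 31, and 170 and 74. For replicates 1 to 3 (1680 and 1387), the covariate gave 391 and 579, median centring 1574 and 686 (69.6% higher, against 54.8%), and leaving out 1 well 1111 (without 3 uM replicate 3) to 1640 and 1006 to 1353. For replicates 4 and 5 (2 and 8), median centring gave 0 and 3, no trend 1 and 4, a fit to the arrays compared 0 and 0 (717 genes at an unadjusted p under 0.05), array weights 0 and 4, same-numbered DMSO wells 0 and 2, no filter 2 and 13, and leaving out 1 well 0 to 3 and 3 to 26, with 3 lower without DMSO replicate 2, 5 without DMSO replicate 4, 15 without 3 uM replicate 4 and 26 without 3 uM replicate 5, and 0 higher without DMSO replicate 1 or 2. Between the 2 sets, the covariate gave 601 and 839 and leaving out 1 well 915 (without 3 uM replicate 4) to 1263 and 919 to 1225. For 100 uM against 3 uM, median centring gave 1177 and 2234 (34.5% higher, against 50.9%), the covariate 1282 and 1158, replicates 4 and 5 alone 1532 and 1288, and leaving out 1 well 1790 to 2112 and 1709 to 2104. For the effect at 24 h minus that at 48 h (0 and 0), array weights gave 836 and 780 and leaving out 1 well 0 to 104 and 0 to 49, with 33 and 11 without 3 uM replicate 4 at 24 h and the highest without replicate 5. Where 1 well of replicates 4 and 5 remained, it was assumed to vary like the other groups. The cause of these changes was not tested. Ankrd13d, between the 2 sets, turned to 0.019 (log2) under the covariate.

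With the replicate block, which is the run of 6 arrays, the counts were 314 and 123 for all 5 wells, 1661 and 1414 for replicates 1 to 3, 2 and 10 for replicates 4 and 5, 1318 and 1284 between the sets, 2009 and 1938 for 100 uM against 3 uM, and 0 and 0 for the difference of the times. Outside this block the numbers were not used to pair the wells. Replicates 4 and 5 alone, the set of replicates 1 to 3 alone, and the scaling of the lists were alternatives chosen after seeing the data. Signals near the array median limit the fold changes of Elmo2, Gabrq, Garin5a, Oprk1 and Pla2g2f.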

Other observations

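Cd7, Pla2g2f and Camk2g were among the genes with the largest differences between the 2 sets of 3 uM wells. Cd7, a T cell surface protein, had signals of 457.8, 440.6 and 462.9 in replicates 1 to 3 and 102.1 and 98.4 in replicates 4 and 5, with DMSO wells at 272.7 to 359.7 between them (log2 difference 2.18, adjusted p = 0.00143). Pla2g2f, a secreted phospholipase, had 642, 525.6 and 396.1 in replicates 1 to 3 and 178.1 and 41.1 in replicates 4 and 5 (2.58, adjusted p = 0.000127). Camk2g, a calmodulin-dependent kinase subunit, was brighter and scattered widely, at 2232, 6255 and 2491 in replicates 1 to 3, 320.2 and 588.1 in replicates 4 and 5 and 789.5 to 8429 in DMSO wells. Its log2 difference between the sets was 2.91, and DMSO wells overlapped replicates 1 to 3 and lay above replicates 4 and 5. A second, dim probe set of Camk2g went the other way, at -0.17 in replicates 1 to 3 and 0.09 in replicates 4 and 5 against DMSO. Glis1, Qrich1 and Syndig1l were the other rises the naming rule gave, at log2 differences of 2.48, 2.22 and 2.15. Ninj2, Ankrd13d, Cpne7, Krt86 and Pheta1 were among the falls, at -2.25, -1.99, -1.82, -1.80 and -1.79. Against DMSO, one other probe set of Pheta1 gave 0.034 in replicates 1 to 3 and 0.045 in replicates 4 and 5. Another gave -0.53 and -0.33.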
